A study of Mus musculus with 56 samples.

Results

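Proteasome genes were followed in mouse liver across the day under 2 feeding schedules. The members were all protein-coding genes whose GENCODE mouse symbol begins with Psm, then a letter from a to g, then a number. No expression value enters that name rule, but the members were chosen with earlier results of these data known. The annotation holds 50 such genes, of which 49 were in the gene table and were tested, out of 25415 genes listed and 24786 tested in all. Psmb11, the thymus-specific beta subunit, was not analysed here. Of the 49 genes, 31 encode the constitutive 26S proteasome and are called core subunits below: 7 alpha and 7 beta subunits of the 20S particle, and 6 ATPase and 11 non-ATPase subunits of the 19S particle. The other 18 encode replacement subunits, activators, a regulator and assembly chaperones. Among them, Psmc3ip, a partner of meiotic recombinases, is a member by its name alone.

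The proteasome is the protease that degrades ubiquitin-tagged proteins. Its 20S barrel consists of outer rings of alpha subunits, which gate the entrance, and inner rings of beta subunits, of which Psmb5, Psmb6 and Psmb7 carry the active sites. The 19S particle caps the barrel: its non-ATPase subunits bind substrates and remove ubiquitin, and its ring of Psmc ATPases unfolds and feeds them in. Interferon-inducible subunits can take the place of the catalytic ones.

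The livers came from female C57BL/6J mice aged 9 weeks, kept under 12 h of light per day and, before the experiment, fed freely for 7 days. For 7 days, the DRF animals then ate by day only (daytime-restricted feeding) and the NRF animals, the reference, by night only (nighttime-restricted feeding). Livers were collected at 7 zeitgeber times (ZT, counted in hours from lights on), 0, 4, 8, 12, 16, 20 and 24, from 4 animals per regimen and time, which gave 14 groups and 56 libraries. The clock hours of food access are not given in the sources used here, and all animals were of 1 strain and sex.

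Expression is given in scaled counts, obtained by solving the deposited values for counts and scaling each library, and they compare libraries and not genes. Levels between genes are given per kb of exon. Recovered counts per library summed to between 110.9 and 257.9 M over genes judged whole and exceed the sequencing depth of the study, so they are not reads and the spread between animals is the measure of error. Differences are log2(scaled count + 1), DRF minus NRF, with the standard error (SE) of limma, and understate changes of genes with low values. Calls are Benjamini-Hochberg adjusted p under 0.05 over all 24786 genes. All 5 hepatocyte markers examined were expressed in every library, with summed group means from 109800 to 133400 scaled counts.

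Promoters of 5 members are shown because they stand for the patterns described below: the subunit with the strongest NRF rhythm (Psmd14), a pair of catalytic subunits (Psmb5 and Psmb6), an activator with its own timing (Psme3) and an inducible catalytic subunit (Psmb10). They were taken from RefSeq promoter windows (GRCm38.p6), from 200 bases before the annotated start, leaving out bases in annotated exons (27 for Psmb5, 52 for Psmb10), and are given 5′ to 3′ on the strand of the gene. Psmd14 lies at chr2:61711494-61711693 (+), Psmb5 at chr14:54618023-54618195 (-), Psmb6 at chr11:70525157-70525356 (+), Psme3 at chr11:101316013-101316212 (+) and Psmb10 at chr8:105938445-105938592 (-). Capitals mark matches to the motifs searched.
Psmd14: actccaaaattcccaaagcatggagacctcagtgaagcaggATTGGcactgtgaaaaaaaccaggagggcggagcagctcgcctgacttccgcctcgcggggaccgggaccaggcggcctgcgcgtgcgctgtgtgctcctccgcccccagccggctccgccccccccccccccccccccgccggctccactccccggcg
Psmb5: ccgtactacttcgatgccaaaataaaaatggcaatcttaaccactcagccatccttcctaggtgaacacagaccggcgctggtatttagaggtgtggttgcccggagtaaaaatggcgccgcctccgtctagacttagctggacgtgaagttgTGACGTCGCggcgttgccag
Psmb6: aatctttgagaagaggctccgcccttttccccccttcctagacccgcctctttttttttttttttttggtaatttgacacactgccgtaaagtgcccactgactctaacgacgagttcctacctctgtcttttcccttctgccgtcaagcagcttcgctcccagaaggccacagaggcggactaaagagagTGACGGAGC
Psme3: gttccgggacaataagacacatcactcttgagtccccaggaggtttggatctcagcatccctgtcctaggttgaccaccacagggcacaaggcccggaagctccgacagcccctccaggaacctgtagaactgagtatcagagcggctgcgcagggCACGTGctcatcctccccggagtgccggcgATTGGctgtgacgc
Psmb10: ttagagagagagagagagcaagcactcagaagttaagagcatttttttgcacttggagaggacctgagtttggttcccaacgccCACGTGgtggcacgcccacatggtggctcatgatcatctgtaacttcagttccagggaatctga

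Next, 4 motif strings were searched on both strands of whole windows of 300 bases, from 250 before to 50 after the start, which RefSeq gave for 41 of the 49 genes. TGACNNNGC, the core of the antioxidant response element bound by Nfe2l1 and Nfe2l2, was found in 6 of the 41 genes (14.6%) and in 3781 of 27025 genes with a window. CCAAT, read as ATTGG on the other strand, was found in 14 (34.1% against 41.1% of all genes). CACGTG, the E-box, was found in 4 (9.8% against 8.1%). The interferon-type element, a pair of GAAA strings 2 bases apart, was found in 5 (12.2% against 4.0%). Among 25 core subunits with a window, TGACNNNGC was in 4, CCAAT in 10, the GAAA pair in 2 and CACGTG in 1. These are matches of letters and not measured binding, and none of the strings printed in capitals above overlaps another.

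Core subunit transcripts were on average high from ZT8 to ZT16 under DRF and around the end of the night under NRF. Relative to each gene's own mean over the 56 livers, the mean of the 31 core subunits under DRF was highest at ZT16, at 0.14 ± 0.06 log2 units (SD, n = 4), and lowest at ZT24, at -0.17 ± 0.16. Under NRF the same mean was highest at ZT24, at 0.12 ± 0.06, and lowest at ZT12, at -0.18 ± 0.07. The span was small, 1.24-fold from lowest to highest group under DRF and 1.23-fold under NRF. In bulk tissue, fewer cells of a type and less RNA per cell cannot be told apart.

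**Figure D1:**
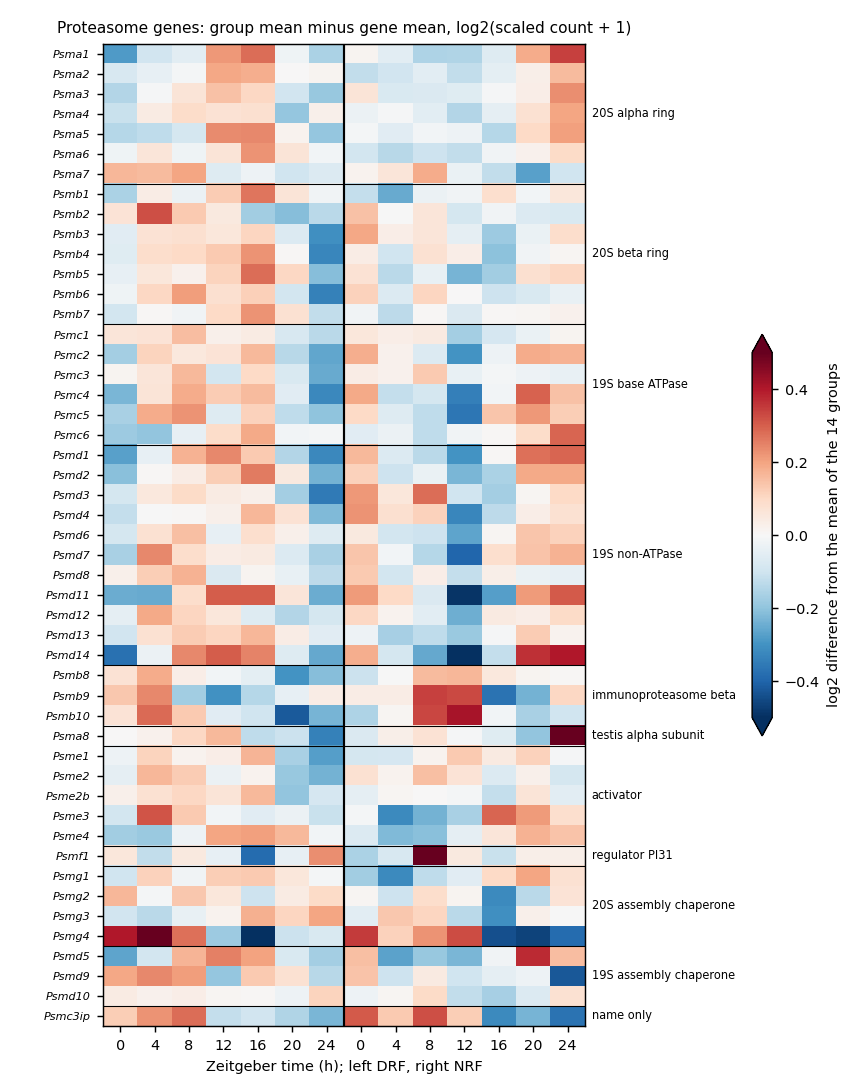
Mean of each group of 4 livers minus the mean of the 14 groups, in log2(scaled count + 1), for 49 proteasome genes ordered by role, with DRF on the left, NRF on the right and zeitgeber time (h) along the bottom. Most core subunits are red at ZT12 or ZT16 under DRF and blue at ZT12 under NRF, while the immunoproteasome beta subunits are red at ZT8 and ZT12 under NRF.

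A 24-h rhythm was called under DRF in 31 of the 49 genes, against 35.4% of all genes and 46.0% of protein-coding genes. Under NRF it was called in 29, against 43.9% and 53.7%, a share of 59.2% that lies close to that of protein-coding genes. Among the core subunits, 23 of 31 were rhythmic under DRF and 19 under NRF. By role, all 7 constitutive beta subunits were rhythmic under DRF and 2 under NRF, while 7 of 11 non-ATPase subunits of the 19S particle were rhythmic under DRF and 10 under NRF. Without replicate 4 of every group, the DRF count of members fell to 20.

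The difference in rhythm itself was called in 30 members (61.2%), against 39.0% of all genes and 50.4% of protein-coding genes, and in 23 of the 31 core subunits (74.2%). It was called in 10 of the 11 non-ATPase subunits, 5 of the 7 alpha subunits, 4 of the 7 beta subunits and 4 of the 6 ATPases. Outside the core it was called in 7 of 18: Psmb9 and Psmb10 of the inducible beta subunits, the activators Psme3 and Psme4, and the assembly chaperones Psmg1, Psmg3 and Psmd5.

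Rhythms were called in both regimens in 22 members (44.9%), which are termed dual-oscillating, against 23.6% of all genes and 31.5% of protein-coding genes. Their median phase shift was 9.23 h, and that of all 5843 dual-oscillating genes was 8.09 h. Of the 22, 17 were phase-inverted, with peaks at least 8 h apart, against 50.6% of all dual-oscillating genes, and 3 were phase-locked, with peaks at most 4 h apart, against 24.7%. Of the 15 dual-oscillating core subunits, 14 were phase-inverted (median shift 10.2 h), and Psmd3, a non-ATPase scaffold subunit, lay at 6.05 h. The phase-locked members were the chaperone Psmg4 (2.83 h), the inducible subunit Psmb10 (3.39 h) and the nuclear activator Psme4 (3.53 h), and Psmb9 lay between the classes at 5.73 h. The number of dual-oscillating members fell to 13 without replicate 1 and to 14 without replicate 4, and with the deposited values in place of scaled counts the median shift was 5.24 h.

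**Figure D2:**
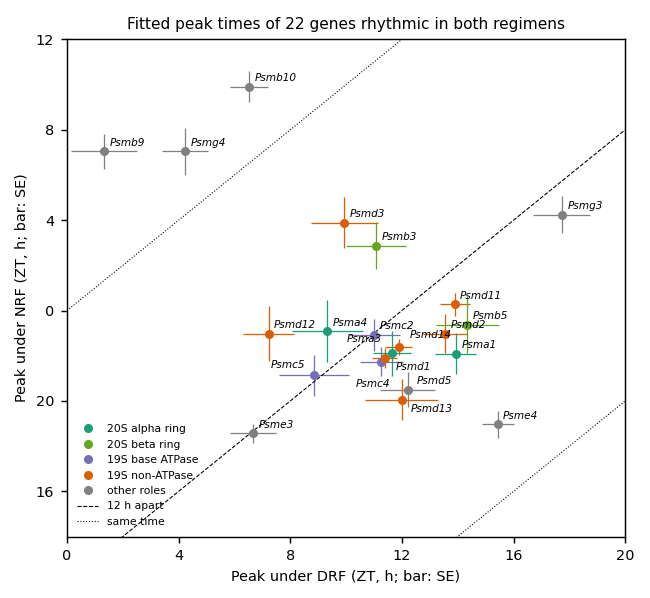
Fitted peak time under DRF (horizontal, ZT in h) against that under NRF (vertical, ZT in h) for the 22 members rhythmic in both regimens, with standard errors as bars and colour by role. The 15 core subunits lie around ZT12 on the DRF axis and ZT23 on the NRF axis. Their peaks are 6.05 to 11.9 h apart (median 10.2 h), and the dashed line marks 12 h. Psmb10, Psmg4 and Psme4 sit nearer the dotted line of equal times.

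Peaks of the core subunits were counted in windows of 8 h chosen after the peaks were seen. Under DRF, 21 of the 23 rhythmic core subunits peaked between ZT8 and ZT16, as did 25.6% of all genes rhythmic under DRF, and the circular mean was ZT11.98. Under NRF, 18 of the 19 rhythmic core subunits peaked between ZT20 and ZT4, as did 25.6% of all genes rhythmic under NRF, and the circular mean was ZT23.19. The subunits outside these windows were Psmb2 and Psmd12 under DRF, at ZT6.19 and ZT7.23, and Psma7 under NRF, at ZT6.79. The fitted amplitudes were modest, with medians of 0.17 under DRF and 0.19 under NRF among rhythmic core subunits, on the log2 scale.

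Compared time by time, the largest numbers of members differed at ZT12 and ZT24. At ZT12, 19 members differed, against 15.4% of all genes: 17 were higher under DRF (7.21% of all genes were) and 2, Psmb9 and Psmb10, were lower (8.23%). At ZT24, 14 members differed, all of them core subunits and all lower under DRF (14.2% of all genes differed, 7.00% were lower). The median difference of the 31 core subunits was 0.22 at ZT12, with 29 of 31 positive, and -0.30 at ZT24, with 1 of 31 positive, while the median of all genes was -0.00176 at ZT12 and 0 at ZT24. Without replicate 2 or without replicate 4, the count at ZT12 was 11.

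Fewer members were called at the other times. At ZT16, 13 members differed (15.4% of all genes), 12 of them higher under DRF (8.89%) and Psme3 lower (6.52%). At ZT20, 6 differed (13.9%), all lower under DRF (6.11%), namely Psmd14, Psmd1, Psmc4, Psmc2, Psma4 and Psme3. At ZT0, 9 differed (16.1%), all of them core subunits lower under DRF (8.07%). With the deposited values, the count at ZT0 was 1 and 16 of the 31 core differences were positive, with a median of 0.0042, so the direction at ZT0 depended on the values used. The counts with deposited values were 6 at ZT16 and 1 at ZT20. The ZT16 count was 7 without replicate 1 and 6 without replicate 3, and the ZT20 count was 3 without replicate 2 or replicate 4. Over all livers, 7 of the 31 core differences at ZT20 were positive, with a median of -0.11. Without replicate 4, 16 were positive, with a median of 0.0029, so the core direction at ZT20 depended on that replicate.

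At ZT4, 6 members were called (20.6% of all genes), and at ZT8 there were 7 (13.2%), with 6 higher (5.83%) and 1 lower (7.35%). The members' shares, 12.2% and 14.3%, lie below and near those of all genes. They fell to 2 at ZT4 without replicate 1 or 2. At ZT8 they fell to 4 without replicate 1 or 3, and to 3 without replicate 4 or with the deposited values.

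**Figure D3:**
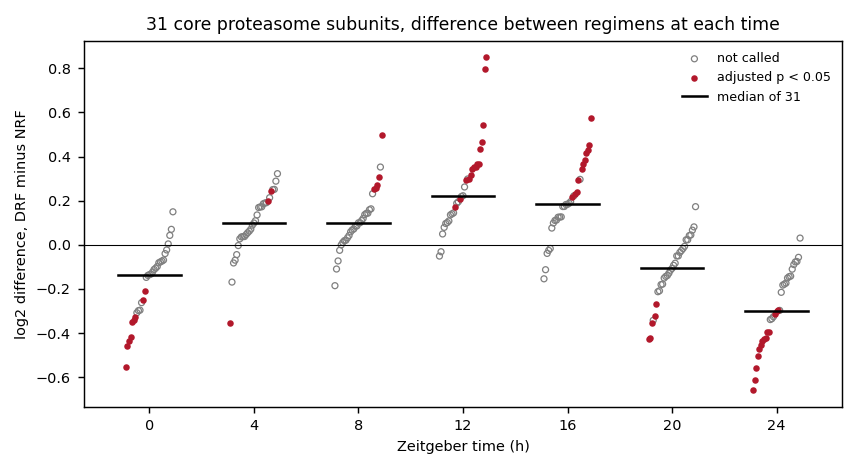
Difference between regimens in log2(scaled count + 1), DRF minus NRF, for each of the 31 core subunits at each zeitgeber time, with filled points for adjusted p under 0.05 and a bar at the median. The medians run from -0.14 at ZT0 through 0.22 at ZT12 to -0.30 at ZT24.

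Counted by libraries alone, all 4 DRF livers lay above all 4 NRF livers at ZT12 in 13 members (7.55% of all genes did) and below them in 2 (8.68%). At ZT24, 15 members had all DRF livers below (8.01%) and 1, Psmg3, above (8.87%). At ZT16, 10 lay above (9.32%) and 0 below (6.75%), and at ZT0, 0 lay above (9.76%) and 11 below (9.82%). Over the day as a whole, only 3 members differed in mean level (6.94% of all genes), and all 3 were higher under DRF (4.21%): Psma6 by 0.12 (SE 0.03, adjusted p = 0.00921), Psmd13 by 0.13 (SE 0.03, adjusted p = 0.0105) and Psmd14 by 0.12 (SE 0.04, adjusted p = 0.0436). Without replicate 1 or replicate 3, no member passed for the mean, whereas 5 passed without replicate 2 and 6 without ZT24. The call of Psmd14 was lost in 9 settings. Psmd13 shares 10.1% of its exon bases with Sirt3 on the opposite strand, and whether counting used strand is not given in the sources used here.

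Among the alpha subunits, which form the outer rings and the gate, Psma3 and Psma1 had the clearest change of rhythm. Psma3 (chr12:70974621-70996347) peaked at ZT11.7 under DRF and ZT22.1 under NRF. At ZT24 its 4 DRF livers held 29.6, 25.3, 34.2 and 28.4 scaled counts and its 4 NRF livers 40.3, 35.0, 38.3 and 44.9. The groups did not overlap, although the highest DRF liver and the lowest NRF liver were close, and the difference was -0.42 (SE 0.06, adjusted p = 1.4e-06).

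Psma1 (chr7:114264606-114276118) peaked at ZT13.9 under DRF and ZT22.1 under NRF. Its DRF livers at ZT24 held 28.8, 28.9, 38.5 and 32.7 scaled counts, and its NRF livers 53.0, 43.4, 40.9 and 46.3. All NRF livers were higher, and the difference was -0.50 (SE 0.11, adjusted p = 0.00086). Psma7 stood apart in this ring: its rhythm passed under NRF, with a peak at ZT6.79, and missed the threshold under DRF (amplitude 0.14, adjusted p = 0.0706), its change of rhythm did not pass (adjusted p = 0.674), and its profile over the 14 groups had a correlation of -0.06 with that of the other core subunits. Its testis-specific counterpart Psma8 had between 0.82 and 8.99 scaled counts and was called in no test.

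In the beta ring, Psmb5, the subunit with chymotrypsin-like activity whose promoter is printed above, was phase-inverted, with peaks at ZT14.3 and ZT23.4. At ZT12 its DRF livers held 46.3, 49.1, 48.9 and 51.4 scaled counts and its NRF livers 35.3, 38.5, 39.997 and 39.6. Every DRF liver was higher, and the difference was 0.34 (SE 0.11, adjusted p = 0.0192).

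Psmb3, a structural beta subunit (chr11:97703399-97713500), peaked at ZT11.1 under DRF and ZT2.87 under NRF. At ZT24 it had 32.9, 27.95, 35.9 and 32.7 scaled counts under DRF and 44.0, 38.3, 40.8 and 48.1 under NRF, without overlap, a difference of -0.39 (SE 0.08, adjusted p = 0.0002). The other catalytic subunits were rhythmic under DRF alone: Psmb6, with caspase-like activity, with an amplitude of 0.18 and a peak at ZT10.2, and Psmb7, with trypsin-like activity, with an amplitude of 0.14 and a peak at ZT14.8. Their change of rhythm passed with adjusted p-values of 0.0321 and 0.00925, and that of Psmb6 was lost in each setting that left out a replicate, ZT0 or ZT24 (adjusted p from 0.052 to 0.255). Psmb1, another structural subunit, had the largest p for that change in this ring (adjusted p = 0.716), with peaks at ZT14.8 and ZT16.5. Psmb7 shares 11.8% of its exon bases with Nek6 on the opposite strand.

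**Figure D4:**
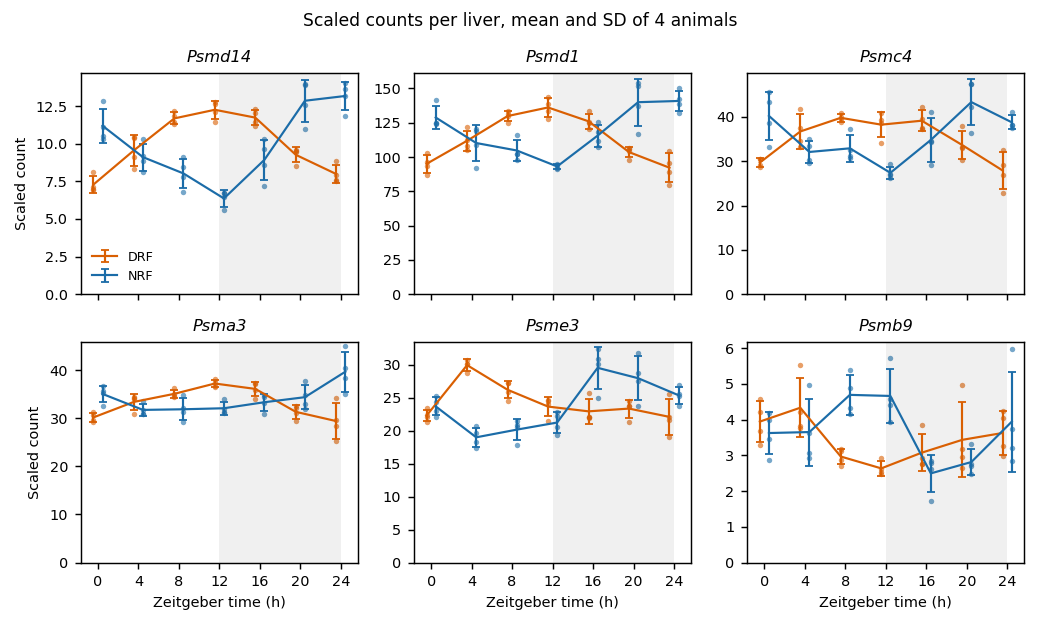
Scaled counts of 6 members against zeitgeber time (h), with 1 point per liver and lines and bars for the mean and SD of 4 livers, DRF in orange, NRF in blue and the dark phase shaded. Psmd14, Psmd1, Psmc4 and Psma3 are higher under DRF at ZT12 and higher under NRF at ZT24, Psme3 is highest at ZT4 in the DRF livers and at ZT16 in the NRF livers, and Psmb9 is lower under DRF at ZT8 and ZT12.

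The ATPases of the 19S base unfold substrates. Psmc4 (chr7:28041707-28050101) had 34.2, 40.9, 39.2 and 38.6 scaled counts in the DRF livers at ZT12 and 29.3, 26.8, 27.2 and 26.2 in the NRF livers. At ZT24 the order was the opposite, with 29.2, 22.9, 32.6 and 26.8 under DRF and 41.1, 38.2, 38.2 and 37.5 under NRF. Neither pair of groups overlapped, and the differences were 0.47 and -0.47 (SE 0.09 each, adjusted p = 0.00026 and 0.00024).

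Psmc2 (chr5:21785283-21803787) peaked at ZT11.0 under DRF and ZT22.9 under NRF. Its ZT24 values were 35.3, 27.7, 35.9 and 29.1 under DRF and 43.9, 43.0, 43.8 and 42.7 under NRF. The NRF livers were all higher and closer to each other than the DRF livers, and the difference was -0.44 (SE 0.08, adjusted p = 0.00013). Psmc2 was also the 1 member with a 12-h component under DRF (adjusted p = 0.0218, 4.82% of all genes), a call lost without any 1 of the 4 replicates. By contrast, Psmc1 and Psmc3 of the same ring were called in no test.

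The non-ATPase subunits held the members with the smallest adjusted p for the change of rhythm, Psmd14, Psmd1 and Psmd11. Psmd14, the deubiquitinase that removes ubiquitin chains before degradation (chr2:61711694-61800376), had at ZT12 12.1, 12.7, 11.4 and 12.8 scaled counts under DRF and 6.71, 6.47, 5.57 and 6.71 under NRF. At ZT24 it had 7.92, 7.54, 8.87 and 7.61 under DRF and 14.04, 11.9, 13.2 and 13.6 under NRF. The groups were far apart at both times and in opposite order, with differences of 0.85 and -0.66 (SE 0.08 each, adjusted p = 1.6e-10 and 9.9e-08). Its fitted peaks were at ZT11.9 and ZT22.4, and its NRF amplitude of 0.41, 1.78-fold from trough to peak, was the largest of all members in that regimen.

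Psmd1, the largest scaffold subunit of the base (chr1:86064387-86139151), had 133.6, 138.8, 128.1 and 144.1 scaled counts under DRF at ZT12 and 95.2, 91.96, 94.2 and 91.2 under NRF. At ZT24 it had 95.6, 79.8, 104.5 and 89.0 under DRF and 138.7, 132.1, 142.3 and 150.4 under NRF. Again neither pair overlapped, with differences of 0.54 and -0.61 (SE 0.08 each, adjusted p = 5.4e-07 and 4.7e-08).

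Psmd11, a lid subunit that bridges the 19S and 20S particles (chr11:80428615-80473248), was chosen for description after its values were seen. At ZT12 its DRF livers held 112.1, 125.5, 119.1 and 123.3 scaled counts and its NRF livers 71.4, 63.9, 69.2 and 70.6, without overlap. The difference was 0.79 (adjusted p = 1e-06). The peaks lay at ZT13.9 and ZT0.27. In the same particle, Psmd8 was called in no test, and its adjusted p for the change of rhythm was 0.228.

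Marker lists of other liver cells were read beside the core subunits. Of 7 Kupffer cell and macrophage markers, 2 were lower under DRF at ZT24, and their summed level was 604 to 736 scaled counts under DRF and 729 to 1303 under NRF. No leukocyte marker of 3 was called, with a summed level of 25.7 to 31.2 against 29.5 to 46.1. None of these markers was at 0 in any library. At ZT12, where core subunits were higher under DRF, 0 of 7 Kupffer cell and macrophage markers were called, and 2 of 3 red cell markers were higher under DRF, with summed levels of 547 to 998 against 317 to 566. Of 3 bile duct markers, 2 changed rhythm, Krt19 and Krt7. One was called lower under DRF at ZT0 and at ZT20 and one higher at ZT8, ZT12 and ZT16, and the list's median difference had the sign of the core median at each of the 7 times, with -0.28 at ZT0, 0.23 at ZT12 and -0.03 at ZT24. Their summed level at ZT12 was 4.36 to 4.97 scaled counts under DRF and 2.86 to 4.23 under NRF, and none was at 0 in any library. A changed rhythm was also called in 3 of 5 sinusoidal endothelial markers, Stab2, Pecam1 and Lyve1, and in 2 of 5 hepatocyte markers, Ttr and Cyp2e1. It was called in 1 of 7 Kupffer cell and macrophage markers and 1 of 7 lymphocyte markers, against 39.0% of all genes. Leukocyte, stellate and red cell markers had 0. Ttr was higher and Cyp2e1 lower under DRF at ZT12, and 2 endothelial markers were higher at ZT20. The part of any of these cells in the result was not tested.

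At ZT12, when core subunits were higher under DRF, a pair of inducible catalytic subunits was lower. Psmb9, which replaces Psmb6 in the immunoproteasome (chr17:34181987-34187764), had at ZT12 2.92, 2.53, 2.62 and 2.47 scaled counts under DRF and 4.57, 3.94, 5.72 and 4.41 under NRF. All DRF livers were lower, and the difference was -0.63 (SE 0.15, adjusted p = 0.00203). Psmb10, which replaces Psmb7, had 4.25, 4.81, 4.09 and 4.25 under DRF and 5.60, 7.04, 6.36 and 6.71 under NRF. It was also lower in every DRF liver, by -0.47 on the log2 scale (SE 0.12, adjusted p = 0.00457).

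Psmb8, which replaces Psmb5 (chr17:34197721-34201454), had 2.99, 2.90, 2.88 and 3.33 scaled counts under DRF at ZT12 and 3.12, 4.14, 3.23 and 3.78 under NRF. These groups overlapped, the difference was -0.18 (SE 0.15, adjusted p = 0.527), and Psmb8 was called in no test. Up to 14.7% of the exon bases of Psmb8 and 5.8% of those of Psmb9 are shared with genes on the opposite strand, Gm20496 and Tap1, and whether counting used strand is not given in the sources used here. At the same time, the 7 lymphocyte markers summed to 1.12 to 2.04 scaled counts under DRF and 1.90 to 3.15 under NRF, and the 3 leukocyte markers to 27.9 to 32.4 and 32.2 to 38.1. None of these 10 markers was called at ZT12 and none was at 0 in any library, and the part of white cells in the difference was not tested.

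Set against its constitutive counterpart per kb of exon, Psmb9 stood at 9.68% of Psmb6 over the 56 livers, Psmb10 at 3.93% of Psmb7 and Psmb8 at 2.28% of Psmb5. At ZT12 the share of Psmb9 was 6.73% ± 0.85 (SD, n = 4) under DRF and 12.5% ± 1.36 under NRF, the share of Psmb10 was 3.41% ± 0.19 and 5.67% ± 0.44, and the share of Psmb8 was 2.03% ± 0.11 and 3.06% ± 0.37. No DRF liver reached the lowest NRF liver in any of the 3 pairs at ZT12. In an exact two-sided permutation test each gave p = 0.0286, the smallest that 4 livers against 4 allow. Of 21 comparisons over pairs and times, 6 reached it and none passed after Benjamini-Hochberg adjustment (adjusted p = 0.1 for each). The constitutive Psmb5 and Psmb7 were themselves called higher under DRF at ZT12, and Psmb8 was not called. The lower share of Psmb8 is thus not a measured fall of Psmb8 itself. The exon lengths of Psmb8 and Psmb9 were searched on the values, so their level per kb is less certain than its change between regimens.

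**Figure D5:**
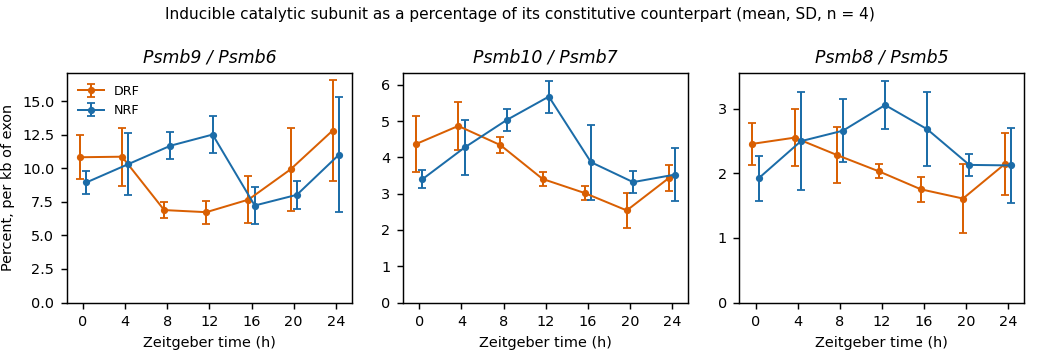
Inducible catalytic subunit as a percentage of the constitutive one it replaces, per kb of exon, against zeitgeber time (h), as the mean and SD of 4 livers, DRF in orange and NRF in blue. Under NRF the 3 percentages are highest at ZT12, at 12.5%, 5.67% and 3.06%, where those under DRF are 6.73%, 3.41% and 2.03%.

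Among the activators, which open the barrel without ubiquitin, Psme3 had a timing of its own. Its peak was at ZT6.68 under DRF and ZT18.6 under NRF, 11.9 h apart. At ZT4 its DRF livers held 30.0, 30.2, 28.7 and 30.8 scaled counts and its NRF livers 20.7, 18.3, 19.6 and 17.4. The groups did not overlap, and the difference was 0.63 (SE 0.08, adjusted p = 2e-08).

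At ZT16 Psme3 had 25.7, 22.1, 21.8 and 21.99 scaled counts under DRF and 24.9, 30.0, 30.8 and 32.3 under NRF. Replicate 1 of DRF lay above replicate 1 of NRF, so the groups overlapped, and the difference was -0.35 (SE 0.08, adjusted p = 0.00094). Its E-box, printed above, is 1 of 4 among the members. Psme4, an activator of the nucleus, peaked at ZT15.4 under DRF and ZT19.0 under NRF, and its change of rhythm passed with an adjusted p of 0.00204, but not with the deposited values (0.311). Psme1 and Psme2, the interferon-inducible pair, had no change of rhythm that passed (adjusted p = 0.401 and 0.622), and the rhythm of Psme2 passed under DRF and not under NRF (adjusted p = 0.520). Psme2b, a close copy of Psme2 with which reads may be shared, had the smallest NRF amplitude, 0.02. Psmf1, the regulator PI31, was called in no test.

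The assembly chaperones, which leave before the proteasome is complete, did not share 1 pattern. Psmg3 (chr5:139823592-139826885), which helps to build the alpha ring, had at ZT16 2.49, 2.58, 2.41 and 2.85 scaled counts under DRF and 1.56, 1.90, 1.09 and 1.75 under NRF. All DRF livers were higher, by 0.48 (SE 0.08, adjusted p = 2.5e-05), and its peaks, at ZT17.7 and ZT4.24, came later than the circular mean of the core in both regimens. Psmg1 (chr16:95979933-95990960) had at ZT4 16.1, 18.2, 14.98 and 17.0 under DRF and 10.2, 12.8, 12.9 and 12.2 under NRF, without overlap and with a difference of 0.43 (SE 0.09, adjusted p = 0.00022). At ZT4, the time of the Psme3 and Psmg1 differences, all 3 red cell markers were higher under DRF, with summed levels of 563 to 1234 scaled counts against 299 to 640. At that time 2 lymphocyte markers and 2 endothelial markers were lower, and the part of these cells in the differences was not tested.

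Psmg4, the partner of Psmg3, had the largest DRF amplitude of all members, 0.47, and peaks at ZT4.22 and ZT7.05. At ZT4 its DRF livers held 59.3, 36.7, 65.5 and 36.4 scaled counts, and at ZT16 19.6, 23.5, 24.05 and 20.99. At ZT4 the 4 livers fell into a wide range. Psmg2 was called in no test.

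Of the 3 chaperones of the 19S base, Psmd5 had a correlation of 0.80 with the core profile over the 14 groups, and peaks at ZT12.2 and ZT20.5. At ZT12 it had 18.4, 17.8, 18.6 and 13.4 scaled counts under DRF and 12.1, 8.64, 16.1 and 11.6 under NRF. In each group 1 liver lay inside the range of the other, and the difference was 0.48 (SE 0.16, adjusted p = 0.0361). Psmd10 had the smallest DRF amplitude, 0.03, and Psmd9 had no rhythm that passed in either regimen (adjusted p = 0.682 and 0.853), with 25.5% of its exon bases shared with Gm26745 on the opposite strand. Psmc3ip peaked at ZT6.79 under NRF and shares 21.2% of its exon bases with Mlx.

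Per kb of exon, mean levels of core subunits over the 56 livers ran from 3.53 scaled counts per kb for Psmd14 to 130.9 ± 19.8 (SD) for Psmb2, a 37.1-fold range. Psma5 followed Psmb2 at 72.4 ± 9.46 and Psmb7 at 70.0 ± 5.71, which overlap within their SD, while Psmb2 lay above both by more than their SDs. The inducible beta subunits lay between 0.97 and 2.73 per kb, and the lowest member was Psmg3 at 0.75. Exon lengths are those of all annotated exons of a gene, so levels of genes whose long forms are rare in liver are understated.

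Likeness among the members was described by the correlation of log2 group means over the 14 groups, which share libraries and scaling. The median over 465 pairs of core subunits was 0.51, from -0.66 to 0.96, and by role it was highest among the alpha subunits, at 0.65, and the non-ATPase subunits, at 0.63. Psmc4 was closest to the mean profile of the remaining core subunits (r = 0.92), followed by Psmd2 and Psmc2 (0.91 each). The least alike of the core subunits were Psma7 (-0.06) and Psmb2 (0.21). Of genes outside the family, the 10 most like the core profile were Mtmr9 (r = 0.945), Hfe, Slc6a13, Pcbd1, Wrap73, Rexo2, Copz1, Pomt1, Eipr1 and Adra1b (0.901).

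Neighbouring pathways were read from lists chosen for their function, with earlier results of these data known. Their counts are read against 39.0% of all genes and 50.4% of protein-coding genes for a changed rhythm, 7.21% higher and 8.23% lower at ZT12, and 7.00% lower at ZT24. Of 13 genes that tag or deliver substrates, 9 changed rhythm, 5 were higher and 1 lower under DRF at ZT12, and 6 were lower at ZT24. Ubqln1, a shuttle of ubiquitinated proteins, differed by 0.60 at ZT12 and -0.42 at ZT24, and the unfoldase Vcp by 0.32 and -0.26. Ubb, the 1 lower at ZT12, differed by -0.60 at that time and by 0.45 at ZT24, where it was not called. Of 10 tested proteins of the proteasome outside the naming pattern, 6 changed rhythm, among them Usp14, a proteasome-bound deubiquitinase (0.44 at ZT12, -0.42 at ZT24). At ZT12, 2 of the 10 were higher under DRF and 1, Fbxo7, was lower (-0.20), with a median difference of 0.08. At ZT24, 2 were lower and 0 higher (median 0.00225). All 8 subunits of the CCT chaperonin changed rhythm. At ZT12, 2 of them were higher and 0 lower under DRF (median difference 0.01), and at ZT24, 2 were lower (median -0.12). Of 10 subunits of the COP9 signalosome, a relative of the 19S lid, 5 changed rhythm, near the share of protein-coding genes.

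Of 7 genes that control proteasome transcription, 5 changed rhythm. At ZT12, 2 were lower under DRF and 0 higher. At ZT24, 3 were higher and 0 lower, where 14.2% of all genes differed. Maff differed by -1.08 at ZT12 and 0.49 at ZT24, and Mafk by -0.26 and 0.35. Nfe2l1, the activator of proteasome genes when the complex is short, was higher under DRF at ZT24 by 0.455 (adjusted p = 0.00747), when core subunits were lower, and differed by -0.11 at ZT12 (adjusted p = 0.64). Among 10 genes of interferon response and antigen presentation, 5 were lower under DRF at ZT12 and 0 higher, against 8.23% and 7.21% of all genes. They were Tap1, Tap2, H2-K1, H2-D1 and Nlrc5, at the time at which Psmb9 and Psmb10 were lower. The clock genes Arntl, Nr1d1, Dbp and Per2 all changed rhythm, with a median shift of 10.9 h.

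ZT24 and ZT0 are the same time of day in different animals. Between them, 2 members differed under DRF (3.15% of all genes), Psmb6 and Psmg3, and 4 under NRF (8.17%), Psma2, Psmc3ip, Psmc6 and Psmd9. The NRF count was 29 with the deposited values, 13 with the trend over exon length removed and 8 with another scaling, and it was 0 without replicate 2 or replicate 4, so it depended on the values used. Exon length moved with these libraries: the Spearman correlation, across genes, between a library's deviation from the gene means and exon length averaged -0.13 at ZT0 and 0.18 at ZT24 under DRF, and -0.19 and 0.18 under NRF (4 libraries each). The average was also negative at ZT4 and ZT8 and positive at ZT12, ZT16 and ZT20 in both regimens. Under DRF it was -0.235 at ZT8 and 0.127 at ZT12, and under NRF -0.149 and 0.041. In both regimens the sign thus split ZT0, ZT4 and ZT8 from ZT12 to ZT24. It did not follow time of day as such, since ZT0 and ZT24 had opposite signs. The part of exon length in the counts, those of 24-h rhythms included, was not tested beyond the setting that removed its trend.

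In all, 9 members were called in no test: Psma8, Psmb8, Psmc1, Psmc3, Psmd8, Psme1, Psme2b, Psmf1 and Psmg2. Of these, 3 (Psmc1, Psmc3 and Psmd8) are core subunits. No member had a 12-h component under NRF by limma (2.07% of all genes), although 7 had an unadjusted p under 0.05, and none differed between regimens in that component (0.117%), with 12 at an unadjusted p under 0.05.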

How the data were processed

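RNA of 56 mouse livers had been sequenced by the authors from ribosomal RNA-depleted, strand-specific, paired libraries (the molecule field of the labels says polyA). The submitters' processing notes name CASAVA 1.8, featureCounts 1.5.0-p3, mm10 and GRCm38.p6. Neither the aligner and annotation nor whether counting was stranded is given in the sources used here. The authors deposited a gene table whose values, named TPM, are not linear in counts and are treated as a score: the product of a deposited value and exon length follows a·ln(1 + f·k), with whole counts k, a scale f and a factor a for each library. Scaled counts f·k were rebuilt from this curve with GENCODE vM21 exon lengths (for Psma8, Psmb8, Psmb9 and Psmg2 with a length searched on the values). For all 49 members, 100% of the values shallow enough to be judged were whole within 0.05. One scaled count stood for 304 to 723 recovered counts. The deposited circRNA and transcript tables were not used. All columns were matched to a sample, which left 0.

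Tests were run with limma 3.58.1 (R 4.3.3) on log2(scaled count + 1) of the 56 libraries together, with a mean and 24-h cosine and sine terms per regimen, added 12-h terms for the 12-h component, and a mean per group for single times. A minimum of 0.1 for the mean deposited value removed 0 genes. Figures and permutation tests used Python 3.11.15, numpy 2.4.6, pandas 2.3.3 and scipy 1.17.1. Scripts were checked on simulated data. Nothing says that replicates with the same number are related, and they are different animals. Members named are, by a written rule, the 2 with the smallest and the 1 with the largest adjusted p for the change of rhythm in each role, those called for the mean, the extremes of amplitude, those with no call and the catalytic pairs. The members, lists and rule were chosen with earlier results of these data known. Alternatives were the deposited values, a pseudocount of 0.1, a filter of 1, no filter, median-of-ratios scaling, removal of the length trend, a replicate block, leaving out each replicate, ZT24 or ZT0, and a Kendall rank test.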

Additional observations from a re-analysis of the deposited data

Results flagged for a closer look

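The change of 24-h rhythm between regimens was called in 30 of the 49 members by the test of the difference itself (limma, adjusted p under 0.05). In 3 groups of 4 livers, 1 liver lay far from the other three. Psmd5 was 13.4 scaled counts in DRF ZT12 replicate 4, below the other livers of its group. Psme3 was 25.7 scaled counts in DRF ZT16 replicate 1, above the others. The mean of the 31 core subunits was 0.12 log2 units above the gene means in NRF ZT8 replicate 2, while the other livers of that group were below them. Over all members, 44 of 686 groups of 4 livers (6.41%) held such a liver, spread over 25 libraries with at most 6 in 1 library, where chance gives about 1 in 20.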

How the results depend on the processing

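No tested value reversed under the alternatives, but the median core differences at ZT0 and ZT20 changed sign. At ZT0, -0.14 as reported, it was 0.0042 with the deposited values. At ZT20, -0.11 as reported, it was 0.0029 without replicate 4. With the deposited values in place of scaled counts, 1 member differed between regimens at ZT0, 3 at ZT8, 6 at ZT16 and 1 at ZT20, 4 differed between ZT0 and ZT24 under DRF and 29 under NRF, none (0) kept a DRF 12-h component, and the median phase shift was 5.24 h. Between ZT0 and ZT24 under NRF, 8 differed with median-of-ratios scaling and 13 with the length trend removed. Without ZT24, 6 differed in 24-h mean, and a 12-h component was called in 0 members (DRF) and 1 (NRF). Without ZT0, it was called in 6 (DRF). With the replicate number as a block, 1 member had a 12-h component under NRF and 30 changed rhythm. Residuals of same-numbered livers had a median correlation of 0.0075 (from -0.39 to 0.31), so the numbers did not pair the livers.

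When each replicate was left out in turn, the members rhythmic under DRF ranged from 20 to 30, those rhythmic under NRF from 21 to 29, those rhythmic in both regimens from 13 to 17, those whose rhythm changed from 25 to 27, and those whose 24-h mean differed from 0 to 5. The median phase shift ranged from 8.7 to 10.3 h. Members that differed ranged from 6 to 10 at ZT0, 2 to 8 at ZT4, 3 to 5 at ZT8, 11 to 15 at ZT12, 6 to 13 at ZT16, 3 to 7 at ZT20 and 10 to 19 at ZT24. Between ZT0 and ZT24 they ranged from 0 to 1 under DRF and 0 to 6 under NRF. Members with a 12-h component stayed at 0 under DRF and ranged from 0 to 1 under NRF. The exact rank test called 32 members rhythmic under DRF, 23 under NRF and 18 in both, at a median shift of 8 h. Of the results for single members, 461 kept their call, 32 lost it and 1 (the change of rhythm of Psmc1, with the length trend removed) gained one. The causes were not tested, and leaving out a replicate or time also lowered the number of livers.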
